A study of Mus musculus with 50 samples.

Results

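The genes described here are the cytochrome P450s of families 1 to 3, the haem enzymes of the endoplasmic reticulum that oxidise drugs, toxins, steroids and fatty acids. They were chosen by name and abundance: every row of the count table whose gene symbol is Cyp1a, Cyp1b, Cyp3a or Cyp2 with any letter followed by a number, and that had at least 10 counts in at least 5 of 49 libraries. Of 45792 rows, 57 carried such a symbol and 45 passed the minimum. The 12 that did not were Cyp2b19, Cyp2b23, Cyp2c65, Cyp2c66, Cyp2d11, Cyp2d34, Cyp2j8, Cyp2j11, Cyp2j12, Cyp2j13, Cyp2t4 and Cyp2w1. Just inside the minimum, Cyp2c69 had 10 counts in 7 libraries and Cyp3a16 in 9, while just outside it Cyp2d11 reached 10 counts in 3 libraries, with 14 as its highest count.

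RNA-seq was performed on 50 samples of liver or liver tumour from C3H/He mice, a strain that is prone to liver tumours, all harvested at 48 weeks. The mice received a control diet or the ALIOS diet, an American lifestyle diet rich in fat with fructose in the drinking water, and some were also given the liver carcinogen DEN. Non-tumour liver came from the control diet in 12 samples (control livers) and from the ALIOS diet in 11 (ALIOS livers), and there were 13 tumours on the ALIOS diet without DEN (spontaneous ALIOS tumours), 1 tumour on the control diet without DEN, 8 tumours on the ALIOS diet with DEN (DEN ALIOS tumours) and 5 on the control diet with DEN (DEN control tumours). No non-tumour liver of a DEN-treated mouse was analysed here, so that tumour tissue and exposure to DEN cannot be told apart in the DEN groups, and the dose and timing of DEN are not given in the sources used here. The methods describe male mice of either of a pair of C3H/He substrains, and the labels do not say which substrain or mouse a library came from. The labels also do not say whether tumours of a group came from separate mice, and p-values therefore measure the spread between these samples.

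Each library held between 23798251 and 45751398 counts. Levels are given in CPM, the counts of a gene per 1000000 counts of its library. One spontaneous ALIOS tumour, T1, stood apart, because 6 kidney tubule markers summed to 46081 CPM there and to at most 24.8 CPM in any other library, while its hepatocyte markers summed to 1739 CPM. T1 was left out of the comparisons and of the values below unless it is named. Hepatocyte markers were abundant in the other 49 libraries, where 7 of them (among them albumin and transthyretin) summed to a median of 90577 CPM in the control livers, 92828 in the ALIOS livers, 166933 in the spontaneous ALIOS tumours, 175776 in the DEN control tumours and 182541 in the DEN ALIOS tumours. Albumin alone made up most of the sum in each of these libraries, such as 87879 of 109980 CPM in N1 and 166207 of 188908 CPM in T4. The sums therefore mainly follow albumin. In whole tissue, fewer cells of a type and less RNA per cell cannot be told apart.

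Family 1 enzymes are induced by planar aromatic compounds through the aryl hydrocarbon receptor, Ahr. Many Cyp2b, Cyp2c and Cyp3a enzymes are induced by drugs and bile acids through the nuclear receptors CAR (Nr1i3) and PXR (Nr1i2), and all of them take electrons from the reductase Por. Liver P450s also differ by place and by sex: Cyp1a2, Cyp2e1, Cyp2a5 and several Cyp2c enzymes are known from hepatocytes around the central vein, Cyp2f2 from those around the portal vein, and in mice some Cyp2a, Cyp2b, Cyp2c and Cyp3a genes are higher in females while Cyp2d9 is higher in males, under the control of growth hormone.

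The 45 members comprised 3 of family 1, 4 Cyp2a, 3 Cyp2b, 13 Cyp2c, 6 Cyp2d, 3 Cyp2j, 7 Cyp3a and 6 others of family 2 (Cyp2e1, Cyp2f2, Cyp2g1, Cyp2r1, Cyp2s1 and Cyp2u1). Most lay in clusters of related genes (build GRCm38): all 13 Cyp2c members on chromosome 19, all 6 Cyp2d members on chromosome 15, all 7 Cyp3a members on chromosome 5, all 3 Cyp2j members on chromosome 4, and the Cyp2a and Cyp2b members on chromosome 7 together with Cyp2e1, Cyp2f2, Cyp2g1, Cyp2r1 and Cyp2s1. Cyp1a1 and Cyp1a2 were neighbours on chromosome 9, with Cyp1b1 on chromosome 17 and Cyp2u1 on chromosome 3.

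Neighbours in these clusters can be close copies of each other and still be expressed at very different levels, such as Cyp2a4 (chr7:26307169-26315088, protein-coding, + strand) and Cyp2a5 (chr7:26835305-26843548), and Cyp2b9 (chr7:26173411-26210661), Cyp2b13 (chr7:26061497-26096197) and Cyp2b10 (chr7:25897620-25926624). The longest transcripts of Cyp2a4 and Cyp2a5 were identical at 98.3% of aligned bases, and those of Cyp2b9 and Cyp2b13 at 91.9%. Their promoters are shown because these copies are the members that rose most in tumours or moved apart from each other below. The sequences are from RefSeq (GRCm38.p6), end at the start of the annotated gene or earlier, and are written 5′ to 3′ on the + strand, on which all 5 genes lie. Capitals mark the bases of Cyp2a4 (chr7:26306942-26307168) and Cyp2a5 (chr7:26835089-26835304) that differ between this pair, those of Cyp2b9 (chr7:26173159-26173408) and Cyp2b13 (chr7:26061245-26061494) that differ between that pair, and those of Cyp2b10 (chr7:25897408-25897619) that differ from Cyp2b9.
Cyp2a4: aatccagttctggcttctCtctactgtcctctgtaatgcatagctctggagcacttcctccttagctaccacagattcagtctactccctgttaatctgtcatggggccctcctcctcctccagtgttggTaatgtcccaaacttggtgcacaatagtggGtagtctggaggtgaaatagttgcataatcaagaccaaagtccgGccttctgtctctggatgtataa
Cyp2a5: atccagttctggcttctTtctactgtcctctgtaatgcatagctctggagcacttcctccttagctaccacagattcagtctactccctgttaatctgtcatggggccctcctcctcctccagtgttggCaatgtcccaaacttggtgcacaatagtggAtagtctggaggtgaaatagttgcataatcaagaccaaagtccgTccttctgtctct
Cyp2b9: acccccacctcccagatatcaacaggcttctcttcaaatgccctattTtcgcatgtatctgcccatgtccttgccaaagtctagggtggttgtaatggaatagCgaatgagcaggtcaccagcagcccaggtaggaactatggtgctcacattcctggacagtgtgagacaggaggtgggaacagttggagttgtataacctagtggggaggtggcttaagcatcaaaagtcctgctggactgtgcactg
Cyp2b13: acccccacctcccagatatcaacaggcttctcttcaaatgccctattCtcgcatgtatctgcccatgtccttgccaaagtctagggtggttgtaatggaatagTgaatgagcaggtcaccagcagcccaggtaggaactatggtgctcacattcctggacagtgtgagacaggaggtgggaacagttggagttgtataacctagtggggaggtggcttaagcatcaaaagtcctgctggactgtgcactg
Cyp2b10: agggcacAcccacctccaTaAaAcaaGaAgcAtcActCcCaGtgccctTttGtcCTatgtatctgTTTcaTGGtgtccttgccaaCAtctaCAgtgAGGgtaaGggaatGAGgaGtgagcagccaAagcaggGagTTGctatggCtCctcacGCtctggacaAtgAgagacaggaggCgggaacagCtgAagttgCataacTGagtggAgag

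Over 216 aligned bases, the Cyp2a4 and Cyp2a5 windows had 4 mismatches (98.1% identity), and over 250 bases Cyp2b9 and Cyp2b13 had 2 (99.2%). Cyp2b10 shared 77.2% of 202 aligned bases with Cyp2b9. RefSeq held a promoter window for 39 of the 45 members. In the 250 bases before the start, on either strand, the TATA box letters TATAAA were found in 20 of 39 members (51.3%), against 12.4% of 32851 promoters of all genes, and the HNF4A-type element CAAAGTCCA in 7 (17.9%, all Cyp2c or Cyp3a: Cyp2c40, Cyp2c67, Cyp2c68, Cyp2c69, Cyp2c70, Cyp3a11 and Cyp3a16), against 0.384%. The core of the Ahr element, GCGTG, was found in 5 members (12.8%), which were Cyp1a1, Cyp1b1, Cyp2b10, Cyp2c68 and Cyp2j9, against 28.2% of all promoters. The TCF-type element CTTTGAT was found in Cyp2c29 and Cyp2c39 (5.13%, against 3.21%), and the STAT5-type element TTCNNNGAA in 0 of 39 (against 7.02%). Copies of related genes share their letters, so these members are not independent of each other.

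Near-identical transcripts also limit which gene a read can be given to. Of the 100-base windows of a member's transcripts, 35.4% in Cyp2c69, 34.4% in Cyp2c40, 23.7% in Cyp2c67, 19.8% in Cyp2c68, 12.1% in Cyp2a5, 11.7% in Cyp2d10, 11.2% in Cyp2a4 and 9.29% in Cyp2b13 occurred in another gene, and values of these members are the less certain ones. On the opposite strand, the exons of Cyp2f2 shared 13.5% and those of Cyp2u1 10.5% of their bases with an antisense gene. Smaller shares lay opposite another gene in Cyp2s1 (5.27%), Cyp2a4 (3.51%) and Cyp2c55 (3.21%). The strand setting of the counting is not given in the sources used here.

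The 45 members together took a median of 1.65% of all counts in the control livers (1.41 to 1.98%) and 1.89% in the ALIOS livers (1.37 to 2.07%). In tumours the share was lower in the median, at 0.94% in the spontaneous ALIOS tumours (0.745 to 1.32%), 1.08% in the DEN control tumours (0.996 to 1.17%), 0.89% in the DEN ALIOS tumours (0.496 to 2.36%) and 0.998% in the single control tumour. The Cyp2c members had a median of 0.368% of counts in the control livers and 0.416% in the ALIOS livers and between 0.0495 and 0.0785% in the 3 tumour groups with several libraries, and the Cyp2a members had 0.0992% and 0.167% in the livers against 0.425% in the spontaneous ALIOS, 0.685% in the DEN control and 0.252% in the DEN ALIOS tumours.

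**Figure D1:**
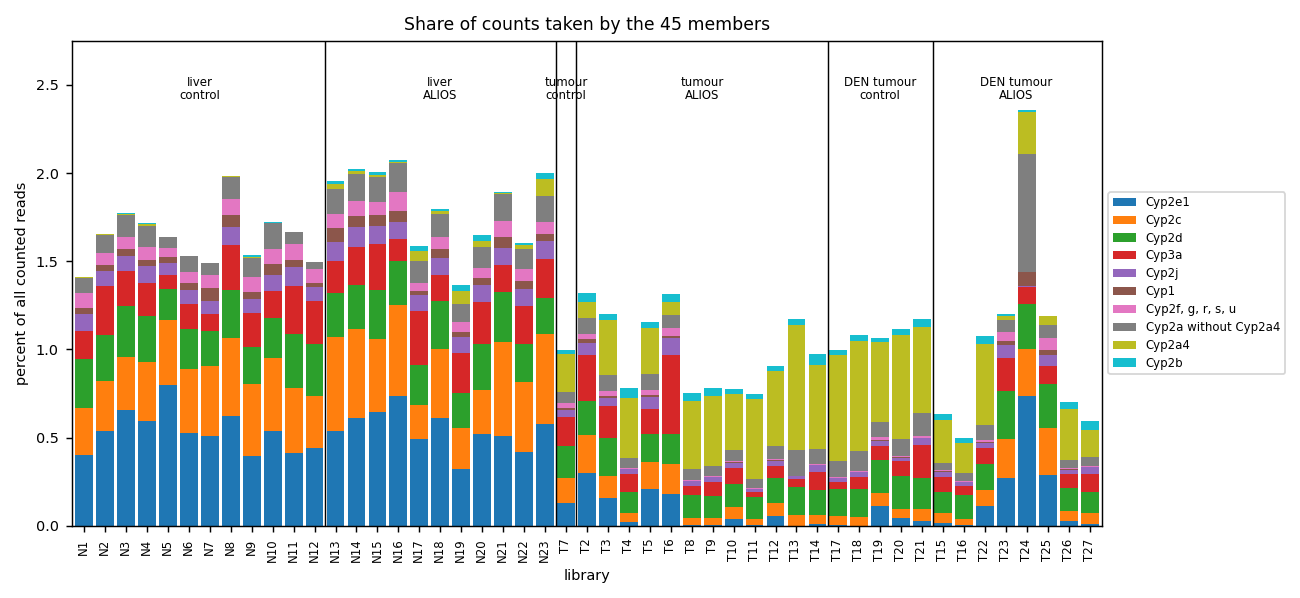
Percent of all counts taken by each subfamily, with Cyp2e1 and Cyp2a4 apart (stacked colours), in each library, ordered by group, on a linear axis from 0. The livers carry large Cyp2e1 and Cyp2c parts, and most tumours a large Cyp2a4 part, with 0.685% of counts as the median of all Cyp2a members in the DEN control tumours.

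Per kilobase of exon, the most abundant member was Cyp2e1 in both liver groups, at a median of 2458 CPM per kilobase in the control and 2481 in the ALIOS livers. In every tumour group it was Cyp2a4, at 2105 CPM per kilobase in the spontaneous ALIOS, 3372 in the DEN control and 1161 in the DEN ALIOS tumours. Cyp2d26 came next in the tumour groups with several libraries (418, 480 and 389 CPM per kilobase), against 387 and 451 in the livers.

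**Figure D2:**
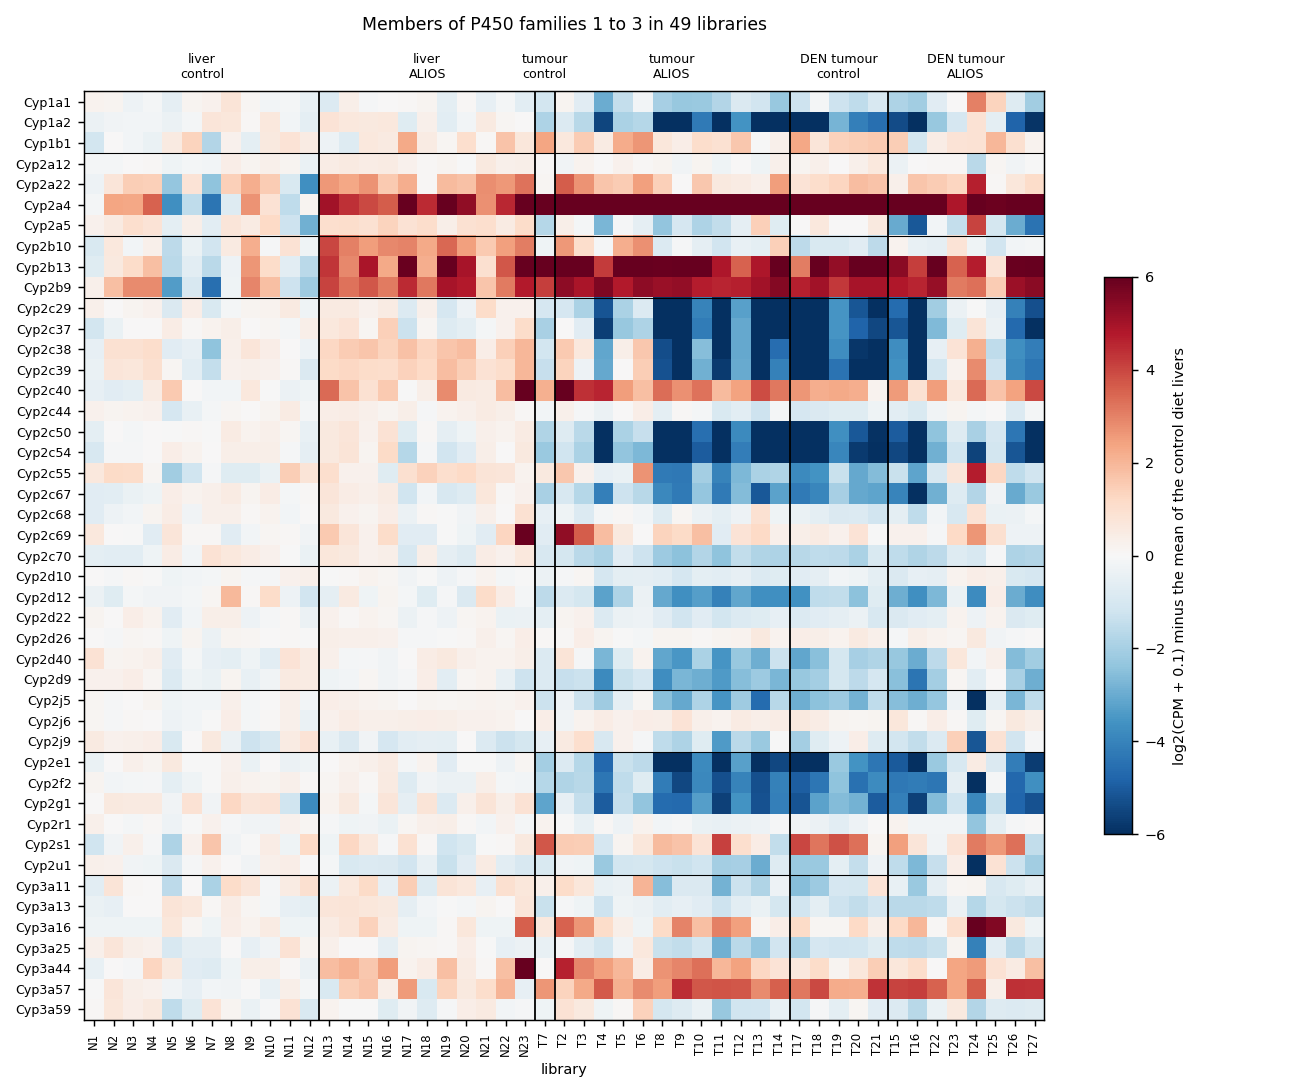
Level of the 45 members (rows, by subfamily) in 49 libraries (columns, by group), as log2(CPM + 0.1) minus the mean of the control livers, with colours clipped at 6 in either direction. Most Cyp2c rows, Cyp1a2, Cyp2e1 and Cyp2f2 are low in most tumours, while Cyp2a4, Cyp2b9, Cyp2b13 and Cyp3a57 are high there.

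The first comparison asked what the ALIOS diet changed in non-tumour liver. Members known to be higher in female than in male mouse liver rose with the diet, as did the CAR target Cyp2b10, whereas the abundant drug-metabolising enzymes around the central vein showed no called change. Of 41 members tested, 9 were called higher and 2 lower at an adjusted p under 0.05 (edgeR quasi-likelihood test), where 6.73% and 4.51% of 13723 genes were. The median log2 fold change was 0.16 over the members tested and -0.02 over all genes tested.

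Cyp2a4, a steroid hydroxylase, ranged from 0.309 to 99.1 CPM in the control livers (median 8.49) and from 55.8 to 1007 in the ALIOS livers (median 192), and the groups overlapped. Its log2 fold change was 3.77 (SE 0.76, adjusted p = 0.0047). Values in parentheses after a gene are, here and below, its log2 fold change with the standard error (SE) and the adjusted p of the edgeR test. Cyp2b13 ranged from 0 to 1.84 CPM and from 0.507 to 19.8, a log2 fold change of 4.35 (SE 0.71, adjusted p = 0.0011). Its neighbour Cyp2b9 rose from a median of 11.4 to 147 CPM, by 2.46 (SE 0.67, adjusted p = 0.021). The third member of that cluster, Cyp2b10, the classical target of CAR, was scarce in both groups, at 0 to 1.25 CPM in the control and 0.797 to 4.67 in the ALIOS livers, with a log2 fold change of 2.88 (SE 0.45, adjusted p = 7.9e-04). No member's groups were free of overlap in this comparison.

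Cyp2c40 and Cyp3a44 were also called higher, with log2 fold changes of 4.04 (SE 0.87, adjusted p = 0.0068) and 3.01 (SE 0.66, adjusted p = 0.007), but a single ALIOS liver, N23, carried 124 and 291 CPM of them against medians of 2.49 and 15.7 CPM in the group. Without N23 the changes were 1.65 (adjusted p = 0.017) and 1.35 (adjusted p = 0.0098). All 5 members of the female-biased list that could be tested were called higher (Cyp2a4, Cyp2b9, Cyp2b13, Cyp2c40 and Cyp3a44), and Cyp2c69 and Cyp3a16 had too few counts to be tested. Among male-biased genes outside these families, 2 of 7 were lower, namely Elovl3 (-2.21, SE 0.61, adjusted p = 0.022) and Hsd3b5 (-1.44, SE 0.44, adjusted p = 0.035). A pair of control livers, N11 and N12, held 570 and 537 CPM of Elovl3 against 18.6 to 62.6 CPM in the other 10, and without them neither gene was called, at -0.52 (adjusted p = 0.25) for Elovl3 and -1.24 (adjusted p = 0.081) for Hsd3b5. Without N23, Hsd3b5 also lost its call (-1.38, adjusted p = 0.056). The male-biased member Cyp2d9 had a log2 fold change of -0.23 (SE 0.16, adjusted p = 0.34) and was not called. Every library carried transcripts of the Y-linked gene Ddx3y, at 32.7 to 111 CPM.

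In the Cyp2c cluster, Cyp2c39, which hydroxylates retinoic acid, ranged from 17.8 to 93.7 CPM in the control and from 86.6 to 193 in the ALIOS livers, a log2 fold change of 1.15 (SE 0.23, adjusted p = 0.0046), and its neighbour Cyp2c38 rose by 1.22 (SE 0.28, adjusted p = 0.0097). The remaining calls were small: Cyp2j6 was higher by 0.22 (SE 0.07, adjusted p = 0.047), and Cyp2j9 (-0.80, SE 0.20, adjusted p = 0.013) and Cyp2u1 (-0.68, SE 0.17, adjusted p = 0.016) were lower. The 8 pericentral members did not pass the test, and their log2 fold changes lay between -0.02 and 0.58. Cyp2e1, which oxidises ethanol and paracetamol, ranged from 3957 to 7959.5 CPM in the control and from 3246 to 7383 in the ALIOS livers, a difference of -0.02 (SE 0.14, adjusted p = 0.93). Family 1 was also without a call, at -0.26 (SE 0.18, adjusted p = 0.35) for Cyp1a1, 0.16 (SE 0.19, adjusted p = 0.61) for Cyp1a2 and 0.73 (SE 0.44, adjusted p = 0.27) for Cyp1b1. Of the factors that act on P450s, Ahr (-0.10), Nr1i2 (0.15), Nr1i3 (-0.22) and Por (0.23) were not called, and of the 5 tested genes of the Ahr pathway 1 was called higher, the quinone reductase Nqo1 (0.94, SE 0.18, adjusted p = 0.003). Markers of other cells moved with the diet in the same livers, with 5 of 6 macrophage markers called higher (summed level 93.2 to 190.1 CPM in the control and 133 to 436 CPM in the ALIOS livers). Cidec, from the list of adipocyte markers, was called higher too (3.16, SE 0.50, adjusted p = 8.8e-04). Marker levels do not show which cells carried these transcripts, and their part in these results was not tested.

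The second comparison set 12 spontaneous ALIOS tumours against the 11 ALIOS livers. The tumours held less of Cyp1a2, Cyp2e1, Cyp2f2 and most Cyp2c and Cyp2d enzymes, and carried more of Cyp2a4, Cyp2b9, Cyp2b13, Cyp2s1 and Cyp3a57. Of 43 members tested, 28 were called lower and 5 higher (edgeR quasi-likelihood test), where 25.9% and 26.9% of 14183 genes were. The median log2 fold change was -0.85 over the members tested and 0.01 over all genes. By subfamily, 10 of 12 Cyp2c members tested were lower and the other two not called, 5 of 6 Cyp2d members were lower, and the 6 other family 2 members divided into 5 lower and 1 higher.

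Among pericentral members, Cyp2e1 ranged from 3246 to 7383 CPM in the livers (median 5354) and from 4.72 to 2999 CPM in the tumours (median 285). Every tumour was below every liver, and the log2 fold change was -2.97 (SE 0.70, adjusted p = 0.0011). Cyp1a2, the caffeine-oxidising enzyme that is the main family 1 member of liver, ranged from 252 to 743 CPM in the livers and from 0.259 to 240 CPM in the tumours (medians 522 and 15.5), again without overlap (-3.38, SE 0.80, adjusted p = 0.0012). Cyp2c29 had 405 to 1740 CPM in the livers and 2.37 to 465 in the tumours, and the groups overlapped (-3.22, SE 0.78, adjusted p = 0.0015). In all, 7 of 8 pericentral members were lower, with a list median of -3.09, and the exception was Cyp3a11, the main drug-metabolising Cyp3a enzyme, at -0.71 (SE 0.44, adjusted p = 0.18). As a ratio of the highest to the lowest library, Cyp2e1, Cyp1a2 and Cyp2c29 varied more among the tumours than among the livers of the same diet. The tumours T2, T3, T5 and T6 had 1601 to 2999 CPM of Cyp2e1, while the other 8 had 4.72 to 556 CPM. The pericentral gene Glul was at 378 to 1377 and 11.6 to 150 CPM in them, against 509 to 1230 CPM in the livers. Hepatocyte markers, mostly albumin, summed to 76784, 110540 and 95333 CPM in T2, T3 and T6, within the range of the livers (62102 to 111969). In T5 and the other 8 they summed to 149196 CPM or more. The paper's clustering placed T6 with non-tumour livers. Whether liver tissue was present in these samples was not tested.

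**Figure D3:**
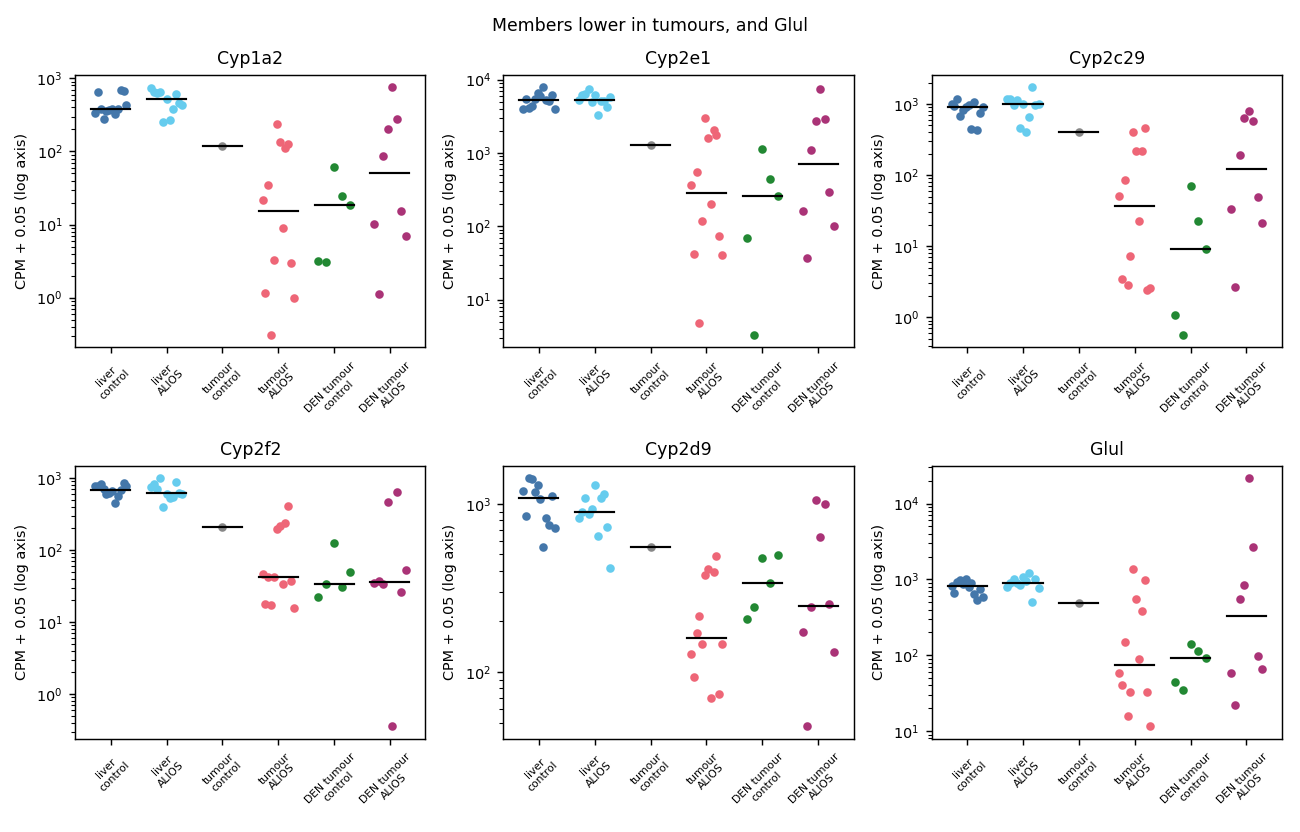
CPM (plus 0.05, log axis) of 5 members that were lower in tumours and of the pericentral gene Glul, with a point per library, by group, and bars at the group medians. Median Cyp2e1 is 5304 and 5354 CPM in the control and ALIOS livers and 285, 256 and 699 CPM in the spontaneous ALIOS, DEN control and DEN ALIOS tumours.

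The decrease was not limited to pericentral enzymes. Cyp2f2, the naphthalene-oxidising enzyme known from periportal hepatocytes, had 396 to 991 CPM in the livers and 15.5 to 407 CPM (median 41.9) in the tumours, with an overlap and a log2 fold change of -2.87 (SE 0.50, adjusted p = 4.6e-05). Cyp2d9, the male-biased steroid hydroxylase, had 416 to 1285 CPM in the livers and 70.3 to 491 in the tumours (-2.19, SE 0.30, adjusted p = 2.9e-06). Cyp2c70, which makes the muricholic bile acids of mice, had medians of 1196 and 275 CPM and the smallest p of any member here (-2.04, SE 0.22, adjusted p = 2.8e-07). Cyp2c67 (-2.72, SE 0.42, adjusted p = 1.4e-05), Cyp2g1 (-3.34, SE 0.59, adjusted p = 5.6e-05) and Cyp3a13 (-1.07, SE 0.17, adjusted p = 1.2e-05) were also lower, and Cyp2r1, a vitamin D hydroxylase, had a log2 fold change of -0.36 (SE 0.11, adjusted p = 0.007) that was not called after scaling to total counts (-0.18). Cyp1a1 was scarce in every library compared, at no more than 0.91 CPM, and fell by 1.51 on the log2 scale, while Cyp1b1, which is mainly expressed outside hepatocytes, was not called (0.32, SE 0.40, adjusted p = 0.52). Cyp2b10 (-2.10, SE 0.51, adjusted p = 0.0014) and Cyp2a5 (-1.49, SE 0.35, adjusted p = 0.0012) were lower as well, although their neighbours Cyp2b9, Cyp2b13 and Cyp2a4 rose.

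Cyp2a4 ranged from 55.8 to 1007 CPM in the ALIOS livers and from 687 to 7085 CPM in the spontaneous ALIOS tumours, with medians of 192 and 3659 CPM. The log2 fold change was 3.21 (SE 0.47, adjusted p = 6.8e-06). Cyp2b13 ranged from 0.507 to 19.8 CPM and from 3.47 to 137 (1.93, SE 0.62, adjusted p = 0.011), and Cyp2b9 had medians of 147 and 383 CPM (0.95, SE 0.28, adjusted p = 0.0072). The groups overlapped for all 3 of these members. Cyp3a57, at no more than 3.96 CPM in any of these libraries, and Cyp2s1, an enzyme of epithelia outside the liver, at no more than 6.2 CPM, were called higher by 2.27 (SE 0.51, adjusted p = 6.8e-04) and 1.51 (SE 0.59, adjusted p = 0.033). The 6.2 CPM of Cyp2s1 came from a single tumour, T11. The rest had 0.031 to 1.23 CPM, which overlapped the livers (0.0577 to 0.748 CPM), and the call was not tested without T11. Of the 5 female-biased members tested, 3 were higher, and Cyp2c40 (-0.07) and Cyp3a44 (-0.63) were not called. Together with the diet comparison, the order of median Cyp2a4 was control livers (8.49 CPM), ALIOS livers (192), DEN ALIOS tumours (2019), the single control tumour (2177), spontaneous ALIOS tumours (3659) and DEN control tumours (5861), and of the tumour groups only DEN ALIOS was tested against the others, as given below.

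**Figure D4:**
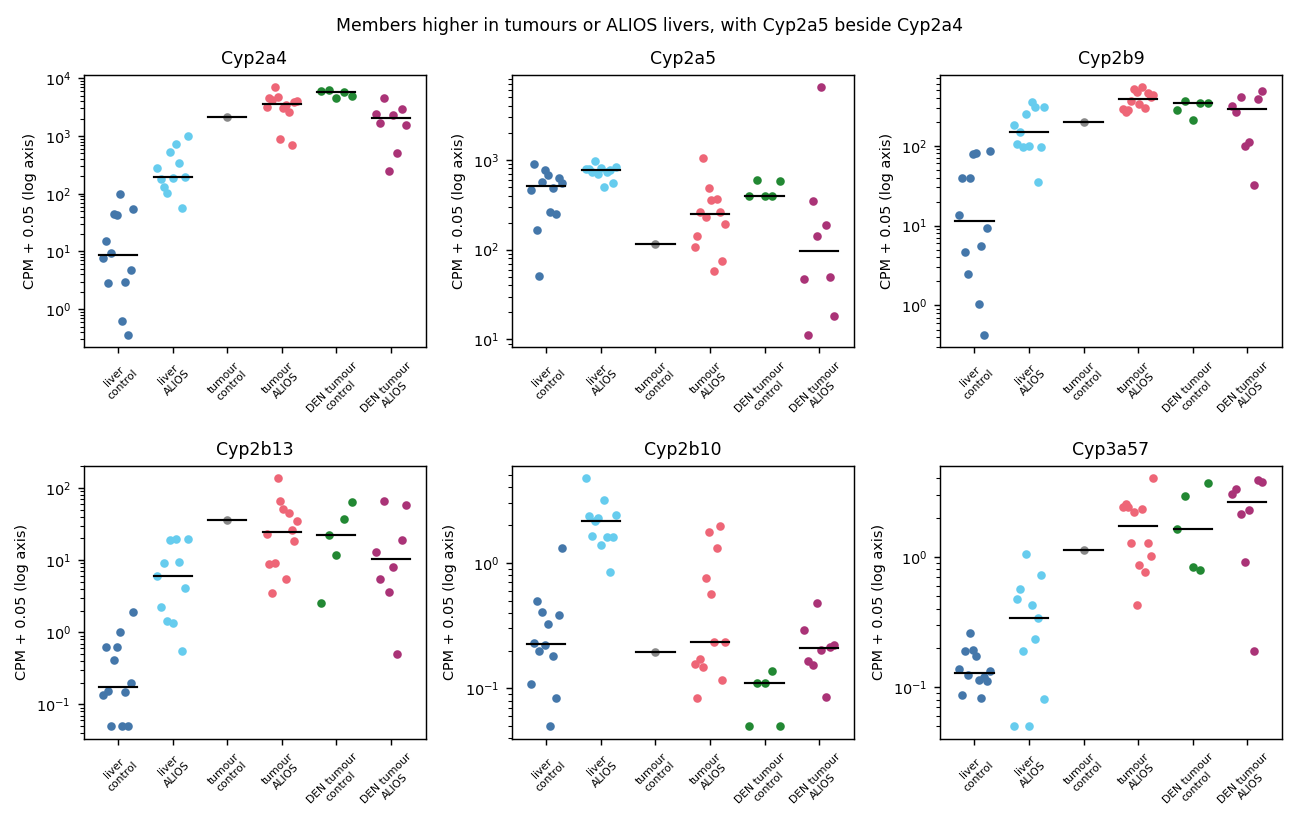
CPM (plus 0.05, log axis) of Cyp2a4, Cyp2a5, Cyp2b9, Cyp2b13, Cyp2b10 and Cyp3a57, with a point per library, by group, and bars at the group medians. Median Cyp2a4 is 8.49 CPM in the control livers and 5861 CPM in the DEN control tumours, while median Cyp2a5, its near copy, is 517 and 397 CPM.

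Receptors and electron donors of the P450s were measured in the same tumours. Of 9 nuclear receptors and liver factors, 6 were called lower and 1 higher, with -1.78 (SE 0.67, adjusted p = 0.028) for Nr1i3 (CAR) and -0.60 (SE 0.16, adjusted p = 0.0036) for Nr1i2 (PXR), and Ahr was lower as well, at -0.85 (SE 0.14, adjusted p = 2.0e-05). Nr1i3 was at 106 to 333 CPM in the tumours T2, T3, T5 and T6, which had the most Cyp2e1, and at 1.51 to 16.9 CPM in the other 8, against 111 to 292 CPM in the livers. Of 13 genes for electron donors and haem synthesis, 11 were lower and 1 higher, among them Por (-1.37, SE 0.19, adjusted p = 3.0e-06) and Alas1, the first enzyme of haem synthesis (-1.66, SE 0.26, adjusted p = 1.9e-05). Outside these families, 14 of 25 P450s of family 4 and above that were tested were lower and 5 higher. Pericentral genes that are not P450s were lower in 6 of 11 cases, with -1.79 (SE 0.64, adjusted p = 0.021) for Glul, the glutamine synthetase of the innermost pericentral hepatocytes, and male-biased genes outside these families in 6 of 7. Of 7 hepatocyte markers, 3 were lower and 1, albumin (Alb, 0.79, SE 0.20, adjusted p = 0.0025), was higher. The summed level of 3 adipocyte markers had a median of 5.33 CPM in the ALIOS livers (0.725 to 26) and 39.3 CPM in the tumours (7.82 to 52.4), and the 1 marker among them that could be tested was called higher. Of 6 macrophage markers, 5 were lower (22.1 to 266 CPM in sum). Marker levels do not show which cells carried these transcripts, and their part in these results was not tested.

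The third comparison set the 5 DEN control tumours against the 12 control livers and shares no library with the one before. Again most Cyp2c enzymes, Cyp1a2, Cyp2e1 and Cyp2f2 were lower and Cyp2a4, Cyp2b9, Cyp2b13, Cyp2s1 and Cyp3a57 higher. Of 42 members tested, 26 were called lower and 7 higher (edgeR quasi-likelihood test), where 24.4% and 27.3% of 14731 genes were. The median log2 fold change was -1.14 over the members tested and 0.03 over all genes. Cyp2b10 had too few counts in these groups to be tested, at 0, 0, 0.0598, 0.0607 and 0.0887 CPM in the tumours and no more than 1.25 CPM in the livers.

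Cyp2a4 was 4488, 4880.1, 5861, 5991 and 6192 CPM in the 5 tumours and 0.309 to 99.1 CPM in the control livers (median 8.49). All tumours were far above all livers, and the log2 fold change was 7.74 (SE 0.96, adjusted p = 1.8e-06). Its near copy Cyp2a5, which hydroxylates coumarin and nicotine, was 396, 396, 397, 585 and 592 CPM in the tumours and 51.5 to 889 CPM in the livers, and was not called (-0.11, SE 0.42, adjusted p = 0.84). Cyp2b13 was 2.53, 11.8, 22.1, 37 and 65 CPM against at most 1.84 CPM in the livers, a log2 fold change of 6.01 (SE 0.72, adjusted p = 1.2e-06) without overlap. Cyp2b9 was 212, 280.2, 341, 346 and 365 CPM in the tumours against 0.378 to 85.7 in the livers (3.22, SE 0.82, adjusted p = 0.0029), also without overlap. Cyp3a57 likewise had separate ranges, at 0.739, 0.777, 1.58, 2.85 and 3.63 CPM against at most 0.21 CPM (4.19, SE 0.36, adjusted p = 1.6e-08). Cyp2s1 (3.39, SE 0.53, adjusted p = 2.8e-05), Cyp2c40 (1.97, SE 0.39, adjusted p = 3.4e-04) and Cyp1b1 (1.57, SE 0.46, adjusted p = 0.0081) were higher too, with ranges that overlapped the livers, and the call of Cyp2c40 was lost when all groups were fitted together. In all, 4 of 5 female-biased members tested were higher, and Cyp3a44 (0.66, SE 0.29, adjusted p = 0.064) was not called.

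Among the members that fell, Cyp2e1 was 3.25, 70.2, 256, 435 and 1131 CPM in the tumours and 3957 to 7959.5 CPM in the control livers (-3.83, SE 0.79, adjusted p = 4.5e-04). Cyp1a2 was 2.98, 3.1, 18.2, 24.3 and 61.1 CPM against 278 to 700 (-4.33, SE 0.63, adjusted p = 1.1e-05). Cyp2c29 was 0.516, 1.04, 9.07, 22.9 and 70.2 CPM against 428 to 1175 (-5.36, SE 0.89, adjusted p = 5.7e-05). No tumour reached the range of the livers for these 3 enzymes, and as a ratio the tumours differed among themselves by more than the livers did, from 3.25 CPM of Cyp2e1 in T18 to 1131 in T19. The neighbours Cyp2c38 and Cyp2c39 were also far below the livers, at 0.213, 0.303, 0.546, 0.621 and 2.12 CPM of Cyp2c39 against 17.8 to 93.7 in the livers, and their log2 fold changes were -5.95 (SE 0.80, adjusted p = 4.4e-06) and -6.17 (SE 0.59, adjusted p = 5.9e-08). In all, 11 of 12 Cyp2c members tested were lower, among them Cyp2c37 (-5.15, SE 0.66, adjusted p = 2.9e-06) and Cyp2c67 (-3.15, SE 0.37, adjusted p = 9.8e-07).

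Cyp2f2 was 21.8, 30.9, 33.1, 48.9 and 126 CPM in the tumours against 447 to 838 CPM in the livers, a log2 fold change of -3.76 (SE 0.38, adjusted p = 1.3e-07). Cyp2j5, an epoxygenase of arachidonic acid, had the smallest p of any lower member here, at 99.6, 108, 139, 169 and 269 CPM against 634 to 940.1 (-2.38, SE 0.19, adjusted p = 8.0e-09). Cyp2d9 fell by 1.61 on the log2 scale (SE 0.24, adjusted p = 1.9e-05), Cyp1a1 by 1.23 and Cyp2r1 by 0.38, and the latter pair lost the call when all groups were fitted together. Cyp3a11 was not called (-1.04, SE 0.52, adjusted p = 0.10), but was -1.84 (adjusted p = 0.0062) without tumour T21, which had 1260.1 CPM. Ranges were also free of overlap for Cyp3a13, which was lower, and for Cyp2d26, which lay above the livers but was not called (0.28, SE 0.12, adjusted p = 0.059). Pericentral genes that are not P450s were lower in 10 of 11 cases, with -3.27 (SE 0.32, adjusted p = 7.8e-08) for Glul. Nr1i3 (-2.89, SE 0.42, adjusted p = 1.3e-05), Ahr (-1.15, SE 0.15, adjusted p = 2.8e-06) and Por (-0.90, SE 0.34, adjusted p = 0.033) were lower, Nr1i2 was not called (-0.21, SE 0.17, adjusted p = 0.31), and 10 of 13 genes for electron donors and haem synthesis were lower. The call of Por was lost without tumour T17, T18 or T21 (adjusted p = 0.065, 0.062 and 0.074). Control livers N11 and N12 held 68.8 and 81.7 CPM of Por, against 224 to 424 CPM in the rest. Without that pair Por was at -1.10 (adjusted p = 4.8e-05). The adipocyte markers had a summed median of 0.553 CPM in the control livers and 42.6 in these tumours, and the 1 marker that could be tested was called higher. Of 5 stellate cell and fibroblast markers 3 were higher, with 4.29 (SE 0.60, adjusted p = 8.2e-06) for the collagen gene Col1a1, and 2 lower (in sum 83.8 to 225 CPM in the livers and 76.3 to 411 CPM in the tumours). Of 6 macrophage markers 3 were lower (93.2 to 190.1 and 31.9 to 92.6 CPM), 2 of 5 cholangiocyte markers were higher (9.25 to 41.4 and 25.8 to 95.5 CPM), and 2 of 3 T cell markers were higher and 1 lower (1.58 to 9.93 and 1.03 to 4.28 CPM). Marker levels in whole tissue do not show which cells carried these transcripts, and the paper reports steatosis in livers and tumours of this model. Neither the cells of origin nor their part in the results was tested.

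**Figure D5:**
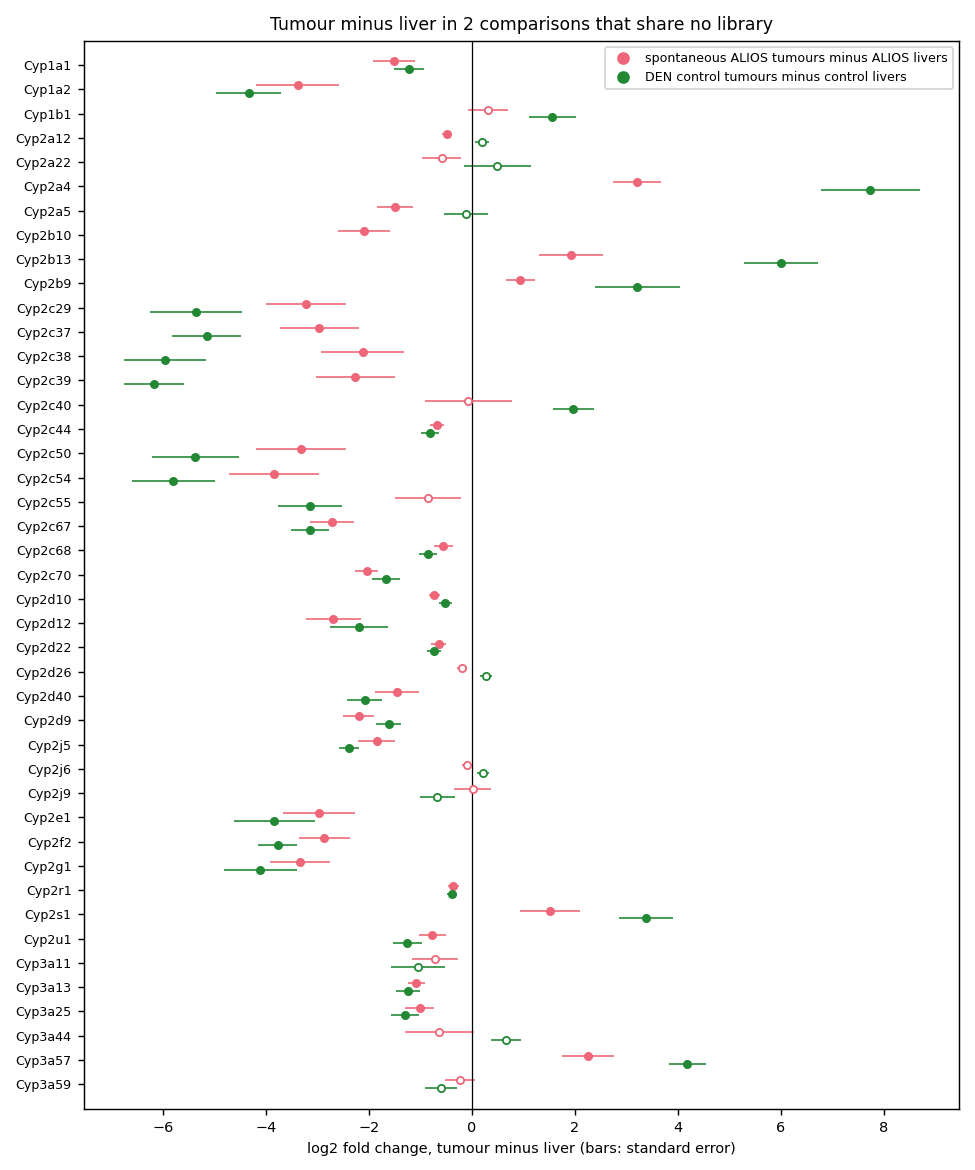
Log2 fold change with standard error of each member tested in the spontaneous ALIOS tumours against ALIOS livers and in the DEN control tumours against control livers, with filled points for members called at an adjusted p under 0.05. Cyp2a4 is at 3.21 and 7.74, Cyp2c39 at -2.26 and -6.17, and no member is called in opposite directions.

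These 2 comparisons had no sample in common, and 42 members were tested in both. The 5 members called higher in the spontaneous ALIOS tumours were all called higher in the DEN control tumours, where they made up 71.4% of the 7 called. Of those called lower, 25 were shared, which is 89.3% of the 28 in the spontaneous ALIOS and 96.2% of the 26 in the DEN control tumours. None was called in opposite directions. Of all genes tested, 26.9% and 27.3% were called higher and 25.9% and 24.4% lower in these 2 comparisons. The share of all genes called alike in both is not given here, so this agreement is not shown to be particular to the members.

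Members that passed in neither of these tests were Cyp2a22, Cyp2d26, Cyp2j6, Cyp2j9, Cyp3a11, Cyp3a44 and Cyp3a59. Cyp2d26 had 517 to 751 CPM in the control livers, 639 to 881 in the ALIOS livers, 615 to 998 in the spontaneous ALIOS, 768 to 976 in the DEN control and 584 to 1018 in the DEN ALIOS tumours, while the other 5 Cyp2d members were called lower in both comparisons. Within the Cyp2j cluster the same division was seen, with Cyp2j5 lower in both (-1.85 and -2.38) and its neighbour Cyp2j6 at -0.10 (SE 0.09, adjusted p = 0.38) and 0.22 (SE 0.12, adjusted p = 0.12). Cyp2a12, in the cluster of Cyp2a4, was at -0.49 (SE 0.09, adjusted p = 1.6e-04) in the spontaneous ALIOS and 0.19 (SE 0.14, adjusted p = 0.26) in the DEN control tumours. Of the 6 Cyp3a members tested, Cyp3a13 and Cyp3a25 were lower and Cyp3a57 higher in both. A value that did not pass the test is not shown to be unchanged.

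The DEN ALIOS tumours were compared with the same 11 ALIOS livers as the spontaneous tumours. Of 43 members tested, 22 were called lower and 3 higher (edgeR quasi-likelihood test), where 19.8% and 27.7% of 14434 genes were. The 3 that rose were Cyp3a57, Cyp2a4 and Cyp2s1, and those that fell again included most Cyp2c enzymes, Cyp2f2 and Cyp2b10. The median log2 fold change was -1.14 over the members tested and 0.08 over all genes.

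Cyp2a4 had 246 to 4613 CPM in these 8 tumours (median 2019), and overlapped the livers (2.46, SE 0.55, adjusted p = 0.0012). Cyp3a57 rose from a median of 0.29 to 2.6 CPM (2.77, SE 0.61, adjusted p = 0.0011), and Cyp2s1 by 1.94 (SE 0.56, adjusted p = 0.008). Cyp2b9 (0.46, SE 0.46, adjusted p = 0.43) and Cyp2b13 (1.28, SE 0.74, adjusted p = 0.16) were not called here, whereas Cyp2b10 in the same cluster was below every liver, at 0.0348 to 0.433 CPM against 0.797 to 4.67 (-3.70, SE 0.38, adjusted p = 4.0e-07). Every tumour was also below every liver in Cyp2g1, an enzyme of the olfactory mucosa that was scarce here (-3.48, SE 0.65, adjusted p = 2.2e-04), in Cyp2c50 (-2.76, SE 0.69, adjusted p = 0.0028) and in Cyp2j5, which was chosen after its values were seen (-2.03, SE 0.61, adjusted p = 0.011). Cyp2c70 (-1.54, SE 0.28, adjusted p = 1.7e-04), Cyp3a13 (-1.73, SE 0.22, adjusted p = 3.9e-06), Cyp3a11 (-1.19, SE 0.31, adjusted p = 0.0036) and Cyp2f2 (-2.23, SE 0.78, adjusted p = 0.024) were lower.

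The pericentral members varied widely among the DEN ALIOS tumours. Cyp2e1 ranged from 36.5 to 7356 CPM with a median of 699, against 3246 to 7383 in the livers (-1.83, SE 0.68, adjusted p = 0.034), and this call was lost after scaling to total counts (-1.57) or to hepatocyte markers (-1.18). Cyp2c29 (-1.98, SE 0.70, adjusted p = 0.026) lost its call with hepatocyte scaling (-1.47), and Cyp2d9 (-1.22, SE 0.42, adjusted p = 0.023) with either. Cyp1a2 ranged from 1.08 to 763 CPM and was not called (-1.84, SE 0.78, adjusted p = 0.059), nor were Cyp1a1 (0.76, SE 0.60, adjusted p = 0.31), Cyp1b1 (-0.05, SE 0.46, adjusted p = 0.94) and Cyp2r1 (-0.38, SE 0.24, adjusted p = 0.20). A single tumour, T24, had the highest value of the group for Cyp2e1 (7356 CPM), Cyp1a2 (763), Cyp2c39 (342), Cyp2c55 (100), Cyp3a16 (95.3) and Cyp2a5. Its Cyp2a5 level was 6461 CPM, while the other 7 tumours had between 11.2 and 344 CPM and the livers at most 979 CPM. In the same tumour Glul was at 21609.8 CPM, Cyp2f2 at 0.306 CPM and Cyp2j5 at 0.328 CPM, and 5 stellate cell and fibroblast markers summed to 942 CPM, against at most 472 CPM in the ALIOS livers. Without T24, the log2 fold change of Cyp2a5 was -2.82 (adjusted p = 2.6e-04) in place of -0.05 (adjusted p = 0.97), and that of Cyp1a2 was -2.72 (adjusted p = 0.0061). T23 and T25 were the next highest in Cyp2e1 (2726 and 2886 CPM), and unlike T24 they also had the highest Cyp2f2 (467 and 642 CPM) and the lowest Cyp2a4 (246 and 502 CPM) of the group. Hepatocyte markers, mostly albumin, summed to 85013, 83915 and 91572 CPM in T23, T24 and T25, within the range of the livers (62102 to 111969). In the rest they summed to 178573 CPM or more. Whether liver tissue was present in any of them was not tested.

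The factors that act on these genes were measured in the same comparison. Nr1i3 (-2.0, SE 0.54, adjusted p = 0.0047), Nr1i2 (-0.78, SE 0.14, adjusted p = 2.1e-04) and Por (-1.31, SE 0.40, adjusted p = 0.011) were lower, Ahr was not called (-0.21, SE 0.20, adjusted p = 0.41), and 8 of 13 genes for electron donors and haem synthesis were lower. T24 stood apart here too, with 687 CPM of Por and 70.2 CPM of Ahr against 49.7 to 138 and 14.6 to 35.5 CPM in the other 7 tumours. Without it Por was at -2.07 (adjusted p = 1.2e-06), Ahr was called lower (-0.47, adjusted p = 0.0089) and 11 of the 13 genes were lower. Pericentral genes that are not P450s were higher in 4 of 11 cases, Glul itself was not called (1.51, SE 0.88, adjusted p = 0.16), and 5 of the 8 pericentral P450s were called lower. These higher calls depended on T24, although T24 was not alone in high values. The other 7 tumours had 21.9 to 2643 CPM of Glul, and T25, the highest of them, was above every liver (at most 1230 CPM). T23 and T25 were above every liver in the called genes Axin2 (10.8 and 14.5 against at most 5.09 CPM) and Rhbg (7.24 and 12.4 against at most 5.71 CPM). Apart from T24, the rest of the group had at most 2.73 and 2.37 CPM of these genes. Without T24 the 4 higher calls were lost, 2 of the 11 genes were called lower and the sign of Glul turned (-0.72, adjusted p = 0.37). Among male-biased genes outside these families, only Slco1a1 was called lower in the DEN ALIOS tumours (-2.21, SE 0.88, adjusted p = 0.044). Hsd3b5 (-1.27, SE 0.99, adjusted p = 0.30) and Elovl3 (1.37, SE 0.95, adjusted p = 0.25) were among those not called.

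Direct comparisons between tumour groups gave no called member. Between DEN ALIOS and spontaneous ALIOS tumours, 42 members were tested and 0 were called in either direction (edgeR, where 0% of 14845 genes were called higher and 0% lower). An unadjusted edgeR p under 0.05 was found for 5 of the 42 members and for 1079 of the 14845 genes. DESeq2 called 0 members higher and 1 lower, and 86 of 27244 genes in either direction. The difference was 2.22 (SE 0.73, adjusted p = 0.33) for Cyp1a1, and those of Cyp1a2 (1.51, SE 1.08, adjusted p = 0.93), Cyp2e1 (1.10, SE 0.96, adjusted p = 0.98), Cyp2a5 (1.41, SE 0.89, adjusted p = 0.88) and Cyp2a4 (-0.81, SE 0.46, adjusted p = 0.83) did not pass the test either. Between DEN ALIOS and DEN control tumours, 42 members were tested and 0 were called (edgeR, where 0% of 14944 genes were called higher and 0.0134% lower). An unadjusted edgeR p under 0.05 was found for 6 of the 42 members and for 1273 of the 14944 genes. DESeq2 called 2 members higher and 0 lower, and 152 of 26616 genes in either direction. Cyp2c39 differed by 5.92 (SE 1.64, adjusted p = 0.30), Cyp2c38 by 5.30 (SE 1.59, adjusted p = 0.36) and Cyp2a4 by -1.51 (SE 0.51, adjusted p = 0.40). A difference that did not pass the test is not shown to be absent, and other fits called 2 (DESeq2) and 4 (all groups in 1 fit) members higher between the DEN groups.

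Whether DEN tumours departed from their livers to a different extent on each diet was tested as the difference between the DEN ALIOS and DEN control changes. Of 43 members tested, 3 were called higher and 2 lower (edgeR, where 1.04% and 1.23% of 15606 genes were). Cyp2a4 (-5.28, SE 1.08, adjusted p = 0.0092) and Cyp2b13 (-4.73, SE 1.15, adjusted p = 0.025) had a lower change from liver to tumour on the ALIOS than on the control diet, relative to livers in which the diet had raised both. Median Cyp2a4 was 8.49 CPM in the control livers and 5861 in the DEN control tumours, and 192 in the ALIOS livers and 2019 in the DEN ALIOS tumours. Cyp2c39 (4.75, SE 1.14, adjusted p = 0.023), Cyp2c55 (4.14, SE 1.12, adjusted p = 0.038) and Cyp2c38 (4.07, SE 1.14, adjusted p = 0.048) had a higher one. Without T24 the change of Cyp2c55 was 1.93 (adjusted p = 0.12), that of Cyp2c38 was 3.06 (adjusted p = 0.072) and that of Cyp2c39 was 2.99 (adjusted p = 0.038). Leaving out DEN control tumours T17, T18 or T20 in turn ended all 3 of these calls, at log2 values of 4.51 to 4.69 for Cyp2c39, 3.92 to 4.03 for Cyp2c55 and 3.74 to 3.97 for Cyp2c38. Leaving out T21 ended those of Cyp2c55 (4.09) and Cyp2c38 (3.87), leaving out the control livers N11 and N12 ended the same pair (3.89 and 4.14), and leaving out the ALIOS liver N23, or DEN ALIOS tumours T23 and T25, ended Cyp2c38 (4.15 and 3.98). Without T19, which had the most Cyp2e1 and Cyp2c39 of its group, 6 members were called higher, among them Cyp2c29 (4.76, adjusted p = 0.023). The sign of Cyp2a5 turned on T24, from 0.10 (SE 1.05, adjusted p = 0.98) with it to -2.71 (adjusted p = 0.016) without it. Pericentral genes that are not P450s were higher in 6 of 11 cases in this contrast, with 4.81 (SE 1.17, adjusted p = 0.025) for Glul, while the 8 pericentral P450s lay between -0.15 and 3.37 and did not pass the test. Without T24, 1 of these 11 genes was called higher and Glul was at 2.51 (adjusted p = 0.056). The call of Glul was also lost without T17 (4.63, adjusted p = 0.062) or T18 (adjusted p = 0.056), and 2 of the 11 were higher without T20.

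The only control-diet tumour without DEN, T7, entered no test. Its Cyp2a4 was 2177 CPM and its Cyp2b13 36.2 CPM, above every control liver (at most 99.1 and 1.84 CPM). Its Cyp2e1 was 1292 CPM, its Cyp1a2 117 CPM and its Cyp2f2 205 CPM, below every control liver (at least 3957, 278 and 447 CPM) and above the median of each tumour group with several libraries.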

How the data were processed

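mRNA was sequenced by the authors from stranded libraries as read pairs, aligned by 2-pass STAR to the mm10 genome and assigned to Gencode M6 exons by HTSeq (mode intersection-nonempty). STAR and HTSeq versions and the strand option are not given in the sources used here. The authors deposited these values as raw read counts per gene, without normalization, in 1 table of 50 libraries. Groups were taken from the labels, and T1 was left out of the tests except in 1 alternative.

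Genes passing filterByExpr on the groups compared were tested with edgeR 4.0.16 (R 4.3.3; TMM, quasi-likelihood F test), with Benjamini-Hochberg adjustment over all genes tested and a call at an adjusted p under 0.05. Only the groups compared entered a fit, and DESeq2 1.42.0 was an alternative. CPM are counts scaled to a library total of 1000000, without TMM. The members named are, per comparison, up to 6 in each direction with the smallest p among those called with a log2 fold change of at least 1 in size, and Cyp1a1, Cyp1a2, Cyp1b1, Cyp2a5, Cyp2b10, Cyp2c29, Cyp2d9, Cyp2e1, Cyp2f2, Cyp2r1 and Cyp3a11 in every comparison. Others are named to account for a count or a library that stands apart, after their values were seen. The members and gene lists were chosen with earlier results of these data known. Positions and exon lengths are from Gencode M21 (GRCm38), and promoters from RefSeq. Counts are reads, not independent molecules. No pair of libraries within a group was alike enough to be 1 library deposited again. The scripts were checked on simulated counts.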

Additional observations from a re-analysis of the deposited data

Results flagged for a closer look

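In 5 of 56 pairs of a named member and a DEN tumour group, 1 tumour lay far from the others by Dixon's ratio on log2 CPM, where chance alone would give about 2.8. Tumour T24 of the DEN ALIOS group was the lowest in 3 of them, at -1.44 for Cyp2f2, -1.36 for Cyp2j5 and 0.97 for Cyp2r1 (log2 CPM). T21 of the DEN control group was the lowest for Cyp2s1, at -1.46, and for Cyp2c40, at -0.013.

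The change from liver to DEN tumour differed between the diets, by edgeR's test of the difference itself, for Cyp2a4 (-5.28 on the log2 scale, ALIOS minus control), Cyp2b13 (-4.73), Cyp2c38 (4.07), Cyp2c39 (4.75) and Cyp2c55 (4.14). The calls of the 3 Cyp2c members were lost when DEN control tumour T17, T18 or T20 was left out, and those of Cyp2c38 and Cyp2c55 also without T24, while Cyp2a4 and Cyp2b13 remained called under every alternative run.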

How the results depend on the processing

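The alternatives were RLE, upper quartile, total count and hepatocyte-marker scaling, no filter on low counts, DESeq2, all groups in 1 fit, a test against a 2-fold change, T1 included, T9 and T1 left out, T24 left out and each DEN control tumour left out, with 3 added after the data were seen (without N23, without N11 and N12, and without T23 and T25). Of 1403 values of named members under these settings, 1351 stayed on the same side of the threshold, 41 lost a call, 10 gained one and 1 was counted as a change of sign. Small values that were not called can turn sign without being counted here. The counted sign change was Cyp2a5 in the difference between diets, at -2.71 without T24. Medians over the members moved by less than the spread between members under all alternatives run for them, but that between DEN ALIOS and spontaneous ALIOS tumours (0.26) turned to -0.02 without T24 and -0.19 without T23 and T25, and that of the difference between diets (0.12) to -0.24 without T23 and T25. The 2 members called lower with the diet in liver became 0 with all groups in 1 fit and 0 in the test against 2-fold. Between DEN ALIOS and spontaneous ALIOS tumours, 2 were higher and 1 lower with all groups in 1 fit, and 1 was lower by DESeq2. Between DEN ALIOS and DEN control tumours, 4 were higher with all groups in 1 fit and 2 by DESeq2. In the difference between diets, the 3 members called higher became 1 without the filter, 0 with all groups in 1 fit, 1 without T24, 1 without N11 and N12, and 0 to 6 when 1 DEN control tumour was left out, and the 2 called lower became 4 without T24. Fewer samples entered the fits that left libraries out, and the cause was not tested otherwise.

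Scaling moved the median of all genes by over 0.1 on the log2 scale. In the spontaneous ALIOS tumour comparison it was 0.01 with TMM, 0.19 with total counts and 0.19 with hepatocyte markers, and in the DEN ALIOS tumour comparison 0.08, 0.21 and 0.23. The higher share of all called genes was 59.9% with TMM, 87.1% with total counts and 92.5% with hepatocyte markers in the diet comparison, 50.9, 72.9 and 76.2% in the spontaneous ALIOS tumours and 58.3, 73.9 and 73.7% in the DEN ALIOS tumours. With hepatocyte markers it was also 0.11 in the diet and in the DEN control tumour comparison. Of all genes tested, 1542 were called in the diet comparison, 2451 by DESeq2 and 623 with all groups in 1 fit. The same counts were 0, 86 and 403 between DEN ALIOS and spontaneous ALIOS tumours, 2, 152 and 296 between DEN ALIOS and DEN control tumours (14 without T24), and 354, 646 and 220 in the difference between diets (148 with hepatocyte markers and 732 without T24). No paired analysis was possible because the labels do not say which tumour and liver came from the same mouse. Depth limits Cyp1a1, Cyp1b1, Cyp2b10, Cyp2s1, Cyp2c69, Cyp3a16 and Cyp3a57, which had few counts in most libraries, and the DEN control group holds 5 tumours.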

Other observations

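T1, the library with kidney transcripts, held 2859 CPM of Cyp2e1, 1966 CPM of Cyp2j5, 858 CPM of Cyp2a4 and 30 CPM of Cyp1b1, against group ranges of 4.72 to 2999, 30.9 to 822, 687 to 7085 and 0.226 to 2.0 CPM in the other spontaneous ALIOS tumours. Its Cyp2j5 and Cyp1b1 were the highest of those tumours. With T1 included, Cyp1b1 was called higher in the spontaneous ALIOS tumours (2.09, edgeR adjusted p = 0.024) and Cyp1a1 lost its call (-1.06, adjusted p = 0.059).

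Cyp3a16, a female-biased member too scarce to be tested in most comparisons, was at 95.3 CPM in T24 and at most 1.37 CPM in every library of the other groups. Cyp2c69, the scarcest member, was highest in the ALIOS liver N23, at 9.64 CPM. Among spontaneous ALIOS tumours, T2 had the highest Cyp2c40 and Cyp3a44, at 101 and 112 CPM, against group medians of 8.09 and 25 CPM.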
